A study of Mus musculus with 4 samples.

Results

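The genes followed here are 9 mouse factors that write, bind or direct the methylation of lysine 9 of histone H3 (H3K9): the heterochromatin protein 1 (HP1) genes Cbx1, Cbx3 and Cbx5, the methyltransferase genes Suv39h1, Suv39h2, Setdb1, Ehmt1 and Ehmt2, and the corepressor gene Trim28. They were chosen by gene name, with earlier results of these data known, each was found once among the 56239 genes of the count table, and all 9 passed the filter on low counts. RNA had been sequenced from CD4+CD8+ double-positive (DP) thymocytes, a stage of T cell development in the thymus, in 4 libraries. The KO group holds 2 libraries from C57BL/6 mice with the genotype Cd4-cre;CHAF1bfloxp/floxp, and the WT group holds 2 libraries from C57BL/6 mice with the genotype CHAF1bfloxp/floxp. The floxed Chaf1b alleles are therefore carried by both groups, and only the KO mice carry the Cre transgene, which is driven from Cd4 and so acts in cells that turn on Cd4. No group had Cre without the floxed alleles, and the labels give neither the age nor the number of mice behind a library. The question that the design poses for these genes is whether their transcripts differ between DP thymocytes with and without intact Chaf1b.

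Chromatin assembly factor 1 places histones H3 and H4 on newly replicated DNA; Chaf1b is one of its subunits, and the largest, Chaf1a, binds HP1 proteins. Suv39h1 and Suv39h2 trimethylate H3K9 at pericentric heterochromatin, HP1 proteins bind that mark through their chromodomain, and Ehmt1 and Ehmt2 work as a pair that places the mono- and dimethyl marks in euchromatin. Setdb1 trimethylates H3K9 at retroelements, to which it is brought by Trim28 and the KRAB zinc finger proteins that Trim28 binds.

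Library totals ran from 21068760 to 27369874 counts. Chaf1b, the targeted gene, had 12.2 and 14.8 CPM (counts scaled to library size) in the 2 KO libraries, against 27.9 and 31.7 CPM in the 2 WT libraries, so both KO libraries lay below both WT libraries (log2 fold change -1.14 ± 0.16 SE; edgeR quasi-likelihood test, adjusted p = 0.267, and 0.0172 when the replicate number entered as a term). The count covers the whole gene and does not show which exons were removed. Its partner Chaf1a had 74.5 and 54.2 CPM in KO and 54.4 and 53.1 CPM in WT (adjusted p = 0.442, edgeR). Xist, the transcript of the inactive X chromosome, had 47301 and 12 counts in KO replicates 1 and 2, against 47368 and 8 in WT replicates 1 and 2, and the Y-linked Ddx3y ran the other way, so replicate 1 was female and replicate 2 male in both genotypes. Values within each sex are given below as the female and the male pair. The KO replicates lay further apart than the WT replicates: the median absolute log2 difference between replicates over 15070 tested genes was 0.29 in KO and 0.13 in WT. All 12 DP thymocyte markers were detected, with Cd4 at 2066 and 1896 CPM in KO and 1814 and 1887 CPM in WT. Liver transcripts, among them the albumin gene Alb, stood at 342 and 4.86 summed CPM in KO replicates 1 and 2 and at 334 and 71.7 summed CPM in WT replicates 1 and 2.

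Cbx3 has many processed copies in the mouse genome, and the sequences show how near some of them are. Bases 360 to 419 of the Cbx3 coding sequence, counted from its first base, are set out beside the same bases of its 2 nearest copies, Cbx3-ps6 on chromosome 14 (GRCm38, chr14:73955000-73955551, minus strand) and Cbx3-ps7 on chromosome 1 (chr1:58646688-58647239, plus strand). Capitals mark, in Cbx3, the positions at which either copy differs from it and, in each copy, the bases that differ from Cbx3.
Cbx3: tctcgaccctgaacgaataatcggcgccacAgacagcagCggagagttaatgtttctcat
Cbx3-ps6: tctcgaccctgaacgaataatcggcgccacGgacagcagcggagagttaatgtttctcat
Cbx3-ps7: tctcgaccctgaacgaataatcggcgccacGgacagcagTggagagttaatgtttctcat
Over the 549 bases of the Cbx3 coding sequence before the stop codon, Cbx3-ps6 differed at 1 position and Cbx3-ps7 at 2. A search of annotated pseudogenes with blastn, at 85% identity or more over at least 300 bases and 80% of the copy, found 21 copies of Cbx3, with identities of 87.0% to 99.8%, of which 7 were above 95%. Cbx1 and Cbx5 had 1 such copy each, at 93.0% and 86.8% identity, and the 6 other genes had 0. Of the 500 stretches of 50 bases in the Cbx3 coding sequence, 450 (90.0%) also occurred in a copy, while for each of the other 8 genes the count was 0. The authors' counting had no option for fragments that map to several places, so fragments lying wholly in such stretches could be missing from the Cbx3 count and its value is uncertain to that extent. The 21 copies together held 38 and 19 counts in KO, against 19 and 26 counts in WT, beside 5386 to 9267 counts for Cbx3 itself in a library.

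The promoters of Suv39h1 and Setdb1 are shown because these were the methyltransferase genes whose KO libraries both lay below both WT libraries. Each line gives the 250 bases before a RefSeq start (GRCm38.p6), read 5′ to 3′ on the strand of the gene. The windows are chrX:8074761-8075010 on the minus strand for Suv39h1 and chr3:95357203-95357452 on the minus strand for Setdb1. Both are free of annotated exons of their own gene, and exons of other genes were not looked for in them. Capitals mark matches, on either strand, to GGGCGG, the word of the GC box, to CCAAT, the word of the box with that name, and to CCGGAA, the core word of ETS factors.
Suv39h1: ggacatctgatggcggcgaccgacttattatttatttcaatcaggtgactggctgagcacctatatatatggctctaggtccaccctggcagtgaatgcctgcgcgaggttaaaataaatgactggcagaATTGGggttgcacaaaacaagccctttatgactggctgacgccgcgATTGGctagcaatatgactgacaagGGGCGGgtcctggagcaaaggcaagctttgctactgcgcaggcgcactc
Setdb1: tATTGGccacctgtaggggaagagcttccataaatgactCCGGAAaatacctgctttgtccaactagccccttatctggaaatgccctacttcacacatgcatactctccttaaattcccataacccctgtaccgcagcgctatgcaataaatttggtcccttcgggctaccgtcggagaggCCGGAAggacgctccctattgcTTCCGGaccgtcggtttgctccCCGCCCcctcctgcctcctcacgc
The Suv39h1 window held 1 GC box, 2 CCAAT boxes and 11 CpG pairs, and the Setdb1 window held 1 GC box, 1 CCAAT box, 3 CCGGAA words and 13 CpG pairs. The median over 32851 promoter windows was 6 CpG pairs. The 9 genes have 13 windows of 250 bases before a RefSeq start, and some of these hold annotated exon bases of their own gene. Suv39h1 has another window, not shown, with 1 GC box, 0 CCAAT boxes and 25 CpG pairs. A GC box was found in 12 of the 13 (92.3%), against 32.74% of all windows. A CCAAT box was found in 3 of the 13 (23.1%) against 33.85% of all windows, and the TATA word TATAAA in 0 of the 13 against 12.37%. Of 4 words bound by E2F factors (TTTGGCGC, TTTGGCGG, TTTCCCGC and TTTCGCGC), 1 was found in 1 of the 13 windows (7.7%), that of Cbx3, against 1.96% of all windows with any of them. The CCGGAA word was found in 1 of the 13, that of Setdb1, against 12.03% of all windows. These matches are letters in a window, not sites shown to be bound.

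Among the HP1 genes, Cbx3 was higher in KO and the other 2 were close to or below WT, and no difference passed the threshold. Cbx3 (HP1 gamma; ENSMUSG00000029836; chr6:51470360-51483704, plus strand), the HP1 protein also found along transcribed genes, had 408.6 and 281.1 CPM in KO replicates 1 and 2, against 227.3 and 231.2 CPM in WT replicates 1 and 2. Both KO libraries lay above both WT libraries, and the KO libraries lay far apart from each other while the WT libraries nearly coincided. The mean was 345 ± 90.2 CPM in KO and 229 ± 2.74 CPM in WT (SD, n = 2 each), a log2 fold change of 0.59 ± 0.19 (SE; 95% interval 0.12 to 1.06), with a raw p of 0.0218 and an adjusted p of 0.267 in edgeR's quasi-likelihood test over all 15070 tested genes. Within the sexes the log2 difference was 0.85 for females and 0.28 for males, and the adjusted p was 0.104 when the replicate number entered as a term. Of the genes tested, 18.1% had a larger absolute fold change than Cbx3. With KO replicate 2 left out the log2 fold change was 0.83, and with KO replicate 1 left out it was 0.30. The size of the Cbx3 difference thus turned on which KO library was kept. Such fits hold 1 KO library, so only their fold changes are given here.

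The genes listed for dividing cells differed in direction, with a median log2 fold change of 0.01 and 0 of 12 past the threshold. Only 1 of all 15070 tested genes passed it. In 5 of the 12 both KO libraries lay above both WT libraries, and in another 5, among them Cdk1 (46.9 and 49.5 CPM in KO, 59.3 and 59.97 CPM in WT), both lay below. Of all tested genes, 27.9% lay above and 28.4% below in this way (56.3% in either direction). Mki67, a marker of cycling cells, had 1862 and 953 CPM in KO replicates 1 and 2, against 882 and 792 CPM in WT replicates 1 and 2. Top2a, a topoisomerase of dividing cells, had 1098 and 783 CPM in KO and 777 and 723 CPM in WT. Both were highest in KO replicate 1, as Cbx3 was, and without that library their log2 fold changes were 0.19 for Mki67 and 0.06 for Top2a. Mki67 and Top2a dominate the summed level of the list, which was 4527 and 3337 CPM in KO, against 3307 and 3115 CPM in WT. The list for earlier thymocytes stood at 528 and 343 summed CPM in KO and 276 and 283 in WT, with 0 of 5 tested genes past the threshold. Notch1 made most of that sum, at 468 and 287 CPM in KO and 231 and 233 CPM in WT. Other marker lists were also higher in both KO libraries and highest in KO replicate 1. Mature thymocyte genes summed to 270 and 218 CPM in KO and 183 and 169 CPM in WT. DP genes summed to 24504.3 and 20762.2 CPM in KO and 20406.5 and 19867.9 CPM in WT. NK and gamma-delta T cell genes did likewise. The sums for myeloid and dendritic cells and for thymic epithelium and stroma were lower in both KO libraries. The part of these transcripts in the Cbx3 difference was not tested. In a sorted bulk sample, fewer cells of a type and less RNA per cell cannot be told apart.

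Cbx1 (HP1 beta; ENSMUSG00000018666; chr11:96789127-96808640, plus strand), a chromodomain reader found mainly in heterochromatin, had 313.5 and 302.9 CPM in KO and 340.9 and 339.6 CPM in WT. Both KO libraries were the lower ones, by a log2 fold change of -0.14 ± 0.11 (SE; 95% interval -0.42 to 0.14; adjusted p = 0.528, edgeR). The mean was 308 ± 7.48 CPM in KO and 340 ± 0.912 CPM in WT (SD, n = 2 each). Cbx5 (HP1 alpha; ENSMUSG00000009575; chr15:103191544-103239816, minus strand), the HP1 protein most tied to pericentric heterochromatin, had 357.7 and 340.9 CPM in KO and 375.0 and 353.7 CPM in WT. The Cbx5 ranges overlapped, with the lowest value in KO and the highest in WT (log2 fold change -0.06, 95% interval -0.35 to 0.23; adjusted p = 0.813, edgeR).

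**Figure D1:**
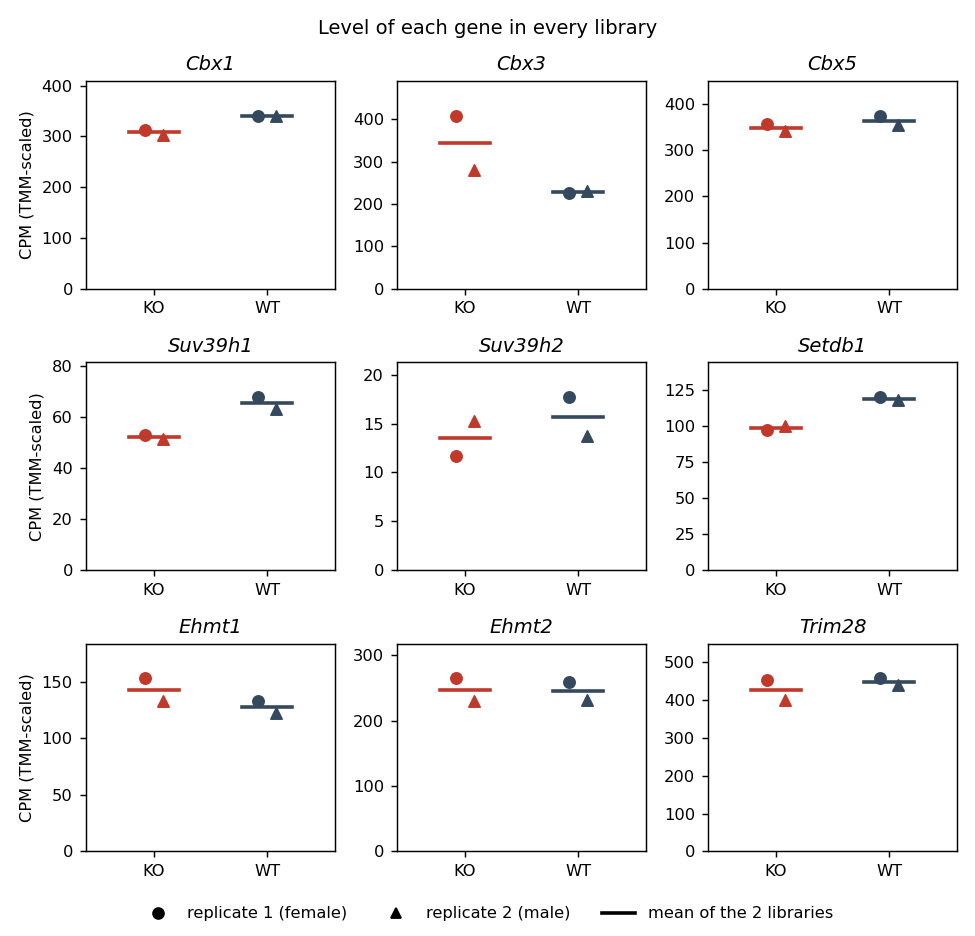
CPM of each of the 9 genes (y axes, from 0) in the 2 KO and 2 WT libraries, with circles for replicate 1 (female), triangles for replicate 2 (male) and lines for the group means. Cbx3 stands out by its KO replicate 1 value of 408.6 CPM, and Cbx1, Suv39h1 and Setdb1 show both KO points below both WT points.

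Among the methyltransferase genes, Suv39h1 and Setdb1 were lower in both KO libraries, and neither passed the threshold. Suv39h1 (ENSMUSG00000039231; chrX:8061171-8074760, minus strand), the X-linked enzyme of pericentric H3K9 trimethylation, had 52.8 and 51.4 CPM in KO and 67.7 and 62.9 CPM in WT. The replicates of each genotype lay closer together than the genotypes did, at 52.1 ± 1.00 CPM in KO and 65.3 ± 3.42 CPM in WT (SD, n = 2 each). The log2 fold change was -0.33 ± 0.11 (SE; 95% interval -0.60 to -0.05), with a raw p of 0.0260 and an adjusted p of 0.267 (edgeR). The difference had a like size in both sexes, -0.36 for females and -0.29 for males, and its adjusted p with the replicate term was 0.196 (edgeR). Of the counted Suv39h1 exon length, 14.55% is shared with the gene model Gm14820, and fragments over that stretch could be left uncounted.

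Setdb1 (ENSMUSG00000015697; chr3:95323525-95357202, minus strand), which silences retroelements together with Trim28, had 96.9 and 100.1 CPM in KO and 119.9 and 117.5 CPM in WT. Here too the replicates of a genotype nearly coincided, and both KO libraries lay below both WT libraries. The mean was 98.5 ± 2.24 CPM in KO and 119 ± 1.69 CPM in WT (SD, n = 2 each). The log2 fold change was -0.27 ± 0.10 (SE; 95% interval -0.53 to -0.01), with a raw p of 0.0427 and an adjusted p of 0.289 in edgeR's quasi-likelihood test. The female and male pairs gave -0.31 and -0.23. With the replicate term the Setdb1 interval reached past 0 (-0.56 to 0.03; adjusted p = 0.276, edgeR). With KO replicate 2 left out, the log2 fold changes were -0.31 for Suv39h1 and -0.29 for Setdb1. With KO replicate 1 left out, they were -0.34 and -0.24.

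Suv39h2 (ENSMUSG00000026646; chr2:3455815-3475031, minus strand), the paralogue of Suv39h1, known for its high expression in testis, had 11.7 and 15.3 CPM in KO replicates 1 and 2, against 17.7 and 13.7 CPM in WT replicates 1 and 2. The genotypes overlapped, since KO was lower in the female pair (-0.59) and higher in the male pair (0.16). It was the least counted of the 9 genes, with 266 to 420 counts in a library, and its 95% interval was the widest of the methyltransferase genes (log2 fold change -0.22, -0.74 to 0.30; adjusted p = 0.609, edgeR). Its interval therefore contains the fold changes of both Suv39h1 and Setdb1.

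Ehmt1 (ENSMUSG00000036893; chr2:24789928-24919614, minus strand), also known as GLP, had 153.1 and 132.9 CPM in KO and 133.1 and 122.6 CPM in WT. Its ranges met, with KO replicate 2 just under WT replicate 1, and the log2 fold change was 0.16 ± 0.12 (SE; 95% interval -0.14 to 0.46; adjusted p = 0.508, edgeR). With KO replicate 2 left out it was 0.26. Ehmt2 (ENSMUSG00000013787; chr17:34898469-34914052, plus strand), its partner, also known as G9a, had 264.8 and 229.8 CPM in KO and 259.4 and 231.7 CPM in WT. The KO values enclosed the WT values, with a log2 fold change of 0.01 (95% interval -0.31 to 0.33; adjusted p = 0.971, edgeR), the smallest of the 9 genes. The Ehmt2 difference took a negative sign when libraries were scaled to their totals, and without KO replicate 1 or WT replicate 2.

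Trim28 (ENSMUSG00000005566; chr7:12999114-13031035, plus strand), the corepressor also called KAP1, had 453.7 and 399.8 CPM in KO and 458.1 and 439.9 CPM in WT. The ranges overlapped and the log2 fold change was -0.07 ± 0.13 (SE; 95% interval -0.40 to 0.25; adjusted p = 0.795, edgeR), a sign that turned without KO replicate 2. It drew the most counts of the 9 genes, up to 12470 in a library.

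At the 0.05 threshold on the adjusted p, 0 of the 9 genes passed as higher and 0 as lower, in the test without a replicate term or in the fit with one; of all tested genes, 0.00664% were called higher and 0% lower without the replicate term, and 1.01% were called higher and 2.2% lower with it (3.21% in either direction). At an unadjusted p under 0.05, 1 of the 9 (Cbx3) was higher and 2 (Suv39h1 and Setdb1) were lower, beside 8.14% and 8.69% of all tested genes. DESeq2 also called 0 of the 9. In 1 of the 9 (Cbx3) both KO libraries lay above both WT libraries, and in 3 (Cbx1, Suv39h1 and Setdb1) both lay below, where 27.9% and 28.4% of all tested genes did so (56.3% in either direction). The median log2 fold change of the 9 genes was -0.07, and that of all tested genes was -0.003. The 95% intervals of Cbx1, Cbx5, Ehmt1, Ehmt2 and Trim28 lay within 0.50 of no difference on the log2 scale, those of Cbx3 and Suv39h2 reached past 0.70, and those of Suv39h1 and Setdb1, before adjustment over all genes, lay below 0 throughout in the test without the replicate term.

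**Figure D2:**
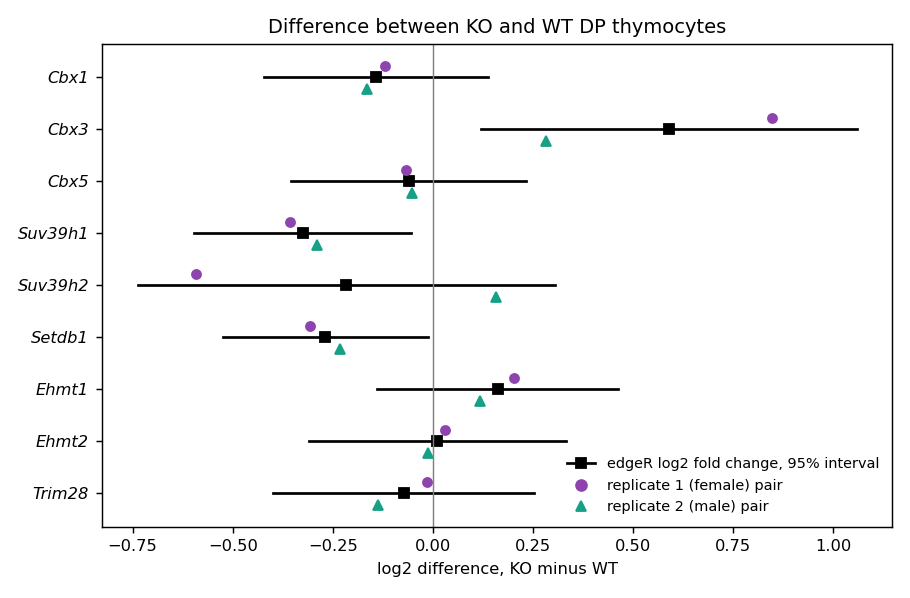
Log2 difference, KO minus WT (x axis), of each of the 9 genes: squares with lines are edgeR fold changes with 95% intervals, circles the replicate 1 (female) pairs and triangles the replicate 2 (male) pairs. The intervals of Cbx3 (0.12 to 1.06), Suv39h1 (-0.60 to -0.05) and Setdb1 (-0.53 to -0.01) leave out 0 before adjustment over all genes, and the Cbx3 pairs (0.85 and 0.28) lie farthest apart after those of Suv39h2 (-0.59 and 0.16).

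Levels of different genes were set side by side only per length, as RPKM, the CPM divided by the kilobases of counted exon. On that scale Trim28 was highest of the 9 genes, at 109 and 96.2 RPKM in KO and 110 and 106 RPKM in WT, and its range did not overlap that of Cbx1, at 73.4 and 70.9 RPKM in KO and 79.8 and 79.5 RPKM in WT. Cbx3 followed, at 68.2 and 46.9 RPKM in KO and 37.9 and 38.6 RPKM in WT, a range that overlapped those of the next genes, Ehmt2 and Cbx5, which did not overlap each other. Ehmt2 had 48.2 and 41.9 RPKM in KO and 47.3 and 42.2 RPKM in WT, and Cbx5 had 39.7 and 37.8 RPKM in KO and 41.6 and 39.3 RPKM in WT. Ehmt1 (18.9 and 16.4 RPKM in KO, 16.4 and 15.1 RPKM in WT) and Setdb1 (14.1 and 14.6 RPKM in KO, 17.5 and 17.1 RPKM in WT) overlapped each other. Within KO alone Ehmt1 stood above Setdb1 in both libraries, and within WT alone it stood below. Suv39h1 had 10.02 and 9.76 RPKM in KO and 12.9 and 11.9 RPKM in WT, below Setdb1 in every library, and Suv39h2 was last, at 2.66 and 3.47 RPKM in KO and 4.02 and 3.11 RPKM in WT. By mean RPKM, Trim28 stood at the 97.6th percentile of tested genes and Suv39h2 at the 41.3rd.

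The share of Cbx3 in the summed HP1 level was higher in both KO libraries. Cbx3 made 37.6% and 30.1% of the summed RPKM of the 3 HP1 genes in KO, against 23.8% and 24.5% in WT. Cbx1 made 40.5% and 45.5% in KO and 50.1% and 50.5% in WT, and Cbx5 made 21.9% and 24.3% in KO and 26.1% and 25.0% in WT. The groups did not overlap for any of the 3 shares, which sum to the whole and so move together. The summed HP1 level was 181 and 156 RPKM in KO and 159 and 157 RPKM in WT, with KO replicate 2 at the WT level. The summed level of the 5 methyltransferase genes was 93.9 and 86.1 RPKM in KO and 98.02 and 89.5 RPKM in WT, ranges that overlapped. Per length, Ehmt2 exceeded its partner Ehmt1 by ratios of 2.56 and 2.56 in KO and 2.88 and 2.79 in WT.

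**Figure D3:**
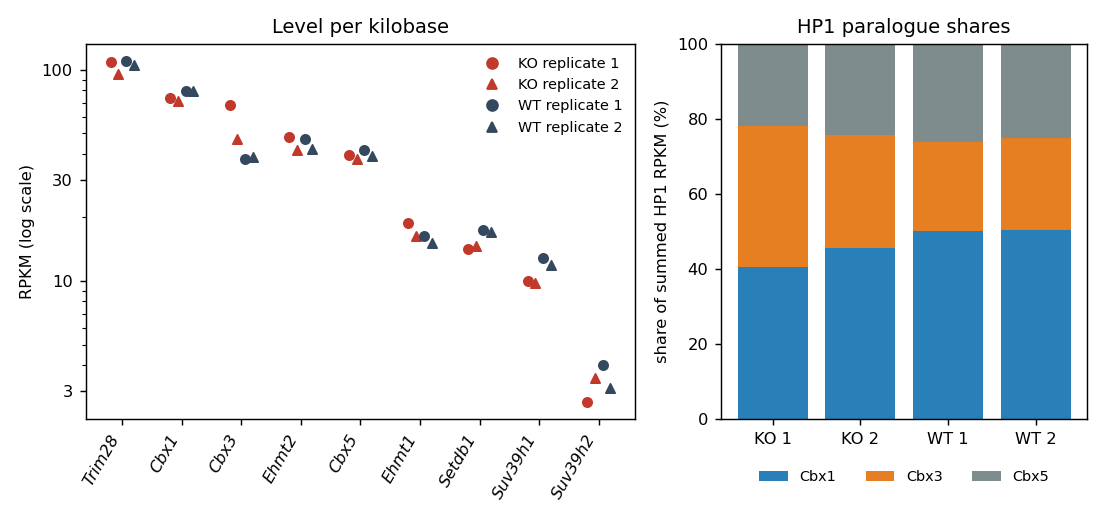
Left, RPKM on a log axis of the 9 genes, ordered by mean, with KO libraries in red and WT libraries in dark blue, circles for replicate 1 and triangles for replicate 2; right, share in percent of Cbx1, Cbx3 and Cbx5 in the summed HP1 RPKM of each library. Cbx3 is the gene whose libraries lie farthest apart among the HP1 genes (68.2 RPKM in KO replicate 1, 37.9 RPKM in WT replicate 1), and its share is 37.6% and 30.1% in KO, against 23.8% and 24.5% in WT.

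The order of levels depends on which transcript models make up the counted length. Of the counted exon length of Cbx3 (5992 bases), 64.95% lies only in transcript models that are not protein-coding, the highest percentage of the 9 genes. For Cbx1 it was 43.13% of 4273 bases, for Setdb1 32.0% of 6853 bases, and for Cbx5 and Suv39h2 it was 0%. With the length of protein-coding transcripts alone, a setting added after the values were seen, Cbx3 became the highest of the 9 by mean, at 195 and 134 RPKM in KO and 108 and 110 RPKM in WT. Trim28 then had 140 and 123 RPKM in KO and 141 and 136 RPKM in WT, and Cbx1 had 129 and 125 RPKM in KO and 140 and 140 RPKM in WT, so Cbx3 lay below both in each WT library and above both in each KO library. Its share of the HP1 sum was then 49.4% in KO and 37.7% in WT on average. The counts in that setting still include fragments over the remaining counted bases. Fold changes between genotypes do not depend on the length.

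**Figure D4:**
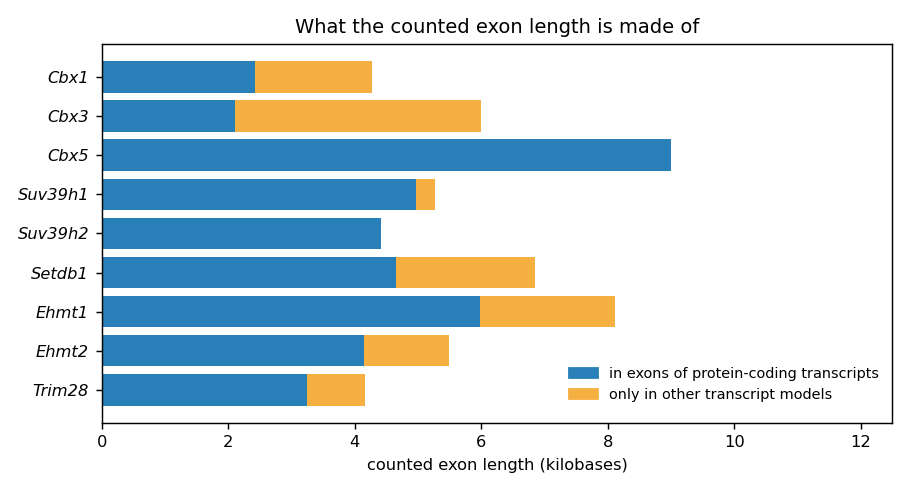
Counted exon length in kilobases (x axis, from 0) of each of the 9 genes, divided into bases in exons of protein-coding transcripts (blue) and bases only in other transcript models (orange). Orange makes up 64.95% of the Cbx3 bar and 0% of the Cbx5 and Suv39h2 bars.

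The other genes of the pathway were read from lists of enzymes and partners, and the edgeR test without a replicate term called 0 genes in every list. That test called 1 of all 15070 tested genes (0.00664%), so 0 calls in a short list says little about its genes. Of 4 other H3K9 methyltransferase genes 3 were tested, with a median log2 fold change of 0.02. In that list Prdm2 had 239 and 191 CPM in KO and 222 and 200 CPM in WT, and Setdb2 had 18.0 and 19.5 CPM in KO and 22.1 and 20.5 CPM in WT. Of 11 H3K9 demethylase genes, which remove the mark, 10 were tested, with a median of 0.07. Phf2, the most abundant of them, had 505 and 541 CPM in KO and 579 and 561 CPM in WT, and Kdm3b had 379 and 323 CPM in KO and 332 and 329 CPM in WT. Phf2 and Setdb2 were lower in both KO libraries, and Prdm2 and Kdm3b overlapped. Prdm16, Phf8 and Kdm7a, named after their values were seen, were higher in both KO libraries, with log2 fold changes of 0.69, 0.45 and 0.27 (adjusted p = 0.267, 0.284 and 0.321, edgeR). The demethylase gene Kdm3a, also named after its values were seen, was lower in both (-0.27, adjusted p = 0.303, edgeR). Of the 10 tested demethylase genes, 2 had both KO libraries above both WT libraries and 2 had both below. The shares over all tested genes were 27.9% and 28.4%.

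Among 10 cofactors of the methyltransferases 8 were tested, with a median log2 fold change of -0.01. Uhrf1, a reader of H3K9 methylation at replication, had 378 and 339 CPM in KO and 352 and 327 CPM in WT. Atf7ip, the partner that stabilises Setdb1 and named here after its values were seen, had 446 and 319 CPM in KO and 275 and 266 CPM in WT. Its log2 fold change was 0.50 (adjusted p = 0.275, edgeR), so the Setdb1 partner was higher in both KO libraries where Setdb1 was lower in both. Like Cbx3, Atf7ip was highest in KO replicate 1. Its log2 fold change was 0.24 without that library and 0.72 without KO replicate 2. The 5 HUSH and MORC silencing genes were all tested, with a median of -0.01. Fam208a, a subunit of the HUSH complex, had 84.1 and 106 CPM in KO and 121 and 114 CPM in WT, with log2 fold changes of -0.15 without KO replicate 1 and -0.49 without KO replicate 2, and Morc2a had 112 and 105 CPM in KO and 108 and 106 CPM in WT.

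All 16 genes of proteins that bind or work beside HP1 were tested, with a median log2 fold change of 0.03. Chd4, a remodelling ATPase, had 1340 and 886 CPM in KO and 840 and 788 CPM in WT (0.45, adjusted p = 0.340, edgeR), again with its highest value in KO replicate 1. Its log2 fold change was 0.12 without KO replicate 1 and 0.72 without KO replicate 2. Atrx, another ATPase of heterochromatin, had 700 and 585 CPM in KO and 620 and 601 CPM in WT. Kmt5c, the enzyme that trimethylates H4K20 downstream of HP1 and named here after its values were seen, had 34.5 and 63.1 CPM in KO and 81.0 and 72.5 CPM in WT (-0.65, adjusted p = 0.301, edgeR). Its log2 fold change was -0.28 without KO replicate 1 and -1.15 without KO replicate 2. With no filter on low counts its adjusted p was 9.08e-04 (edgeR). That setting called 627 genes higher and 838 lower over the whole table. The other settings with all 4 libraries did not call Kmt5c, with an adjusted p of 0.0754 with the replicate term (edgeR), 0.158 in DESeq2 and 0.260 in limma-voom.

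Each of 2 lists held 1 gene past the threshold in the fit with the replicate term. That fit called 1.01% of all tested genes higher and 2.2% lower. Of 10 KRAB zinc finger protein genes, whose products bring Trim28 to DNA, 7 were tested, with a median log2 fold change of -0.15. Zfp932 had 13.5 and 20.1 CPM in KO and 29.2 and 29.9 CPM in WT, so both KO libraries lay below both WT libraries. Its log2 fold change was -0.82 (adjusted p = 0.267, edgeR), and with the replicate term it fell by 0.84 on the log2 scale (adjusted p = 0.0363). Of 20 genes known to be kept silent through H3K9 methylation in some cell types, 3 were tested, with a median of -0.23. Fcgr2b, an inhibitory Fc receptor gene known as repressed by Setdb1 in mouse thymocytes, had 39 and 35 counts in KO and 10 and 8 counts in WT, which is 1.72 and 1.62 CPM in KO and 0.422 and 0.282 CPM in WT. Its log2 fold change was 2.24 (95% interval 1.16 to 3.32, adjusted p = 0.267, edgeR). With the replicate term it rose by 2.25 on the log2 scale (adjusted p = 0.0389, edgeR), while DESeq2 gave it no adjusted p. It passed the filter on low counts only through its KO libraries, so whether Fcgr2b was tested depended on the group where it was high. B cell and myeloid marker genes, of cells that also express Fcgr2b, stood beside it at 463 and 464 summed CPM in KO and 473 and 406 in WT for B cells, nearly all of it Ighm, and at 8.20 and 8.75 in KO and 11.0 and 10.7 in WT for myeloid and dendritic cells, with 2 of 5 and 4 of 8 listed genes tested. The members of these lists differed in direction: Cd79a of B cells had 0.706 and 0.879 CPM in KO and 1.14 and 2.12 CPM in WT, while Csf1r of myeloid cells had 58 and 29 counts in KO and 14 and 23 counts in WT. Both KO libraries were thus below both WT libraries for Cd79a and above both for Csf1r (log2 fold change 1.46, adjusted p = 0.267, edgeR). Of the 4 tested myeloid genes, Csf1r was the 1 above in this way, and 2 lay below. These 2 were Lyz2 (1.32 and 4.44 CPM in KO, 5.70 and 5.29 CPM in WT) and Itgam (2.34 and 1.62 CPM in KO, 3.67 and 2.75 CPM in WT). Of all tested genes, 27.9% lay above and 28.4% below. The part of such cells in the Fcgr2b difference was not tested. The other 17 silenced genes, of the germ line and of other lineages, had at most 5 counts in any library, and 11 of them had 0 in all 4 libraries.

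**Figure D5:**
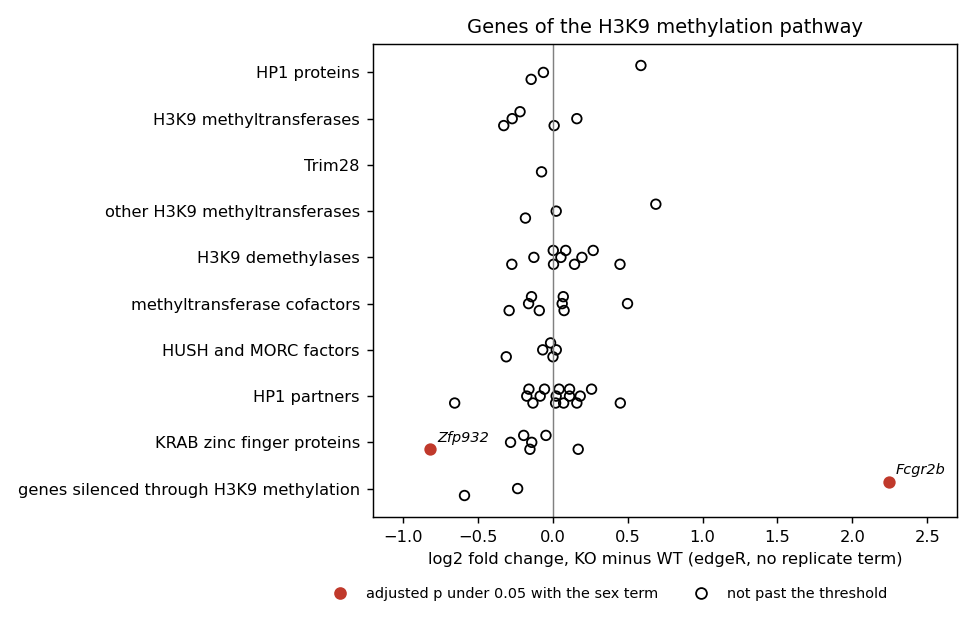
Log2 fold change, KO minus WT (x axis), of every tested gene of each list (rows), from the edgeR test without a replicate term; filled red points passed an adjusted p of 0.05 in the fit with the replicate (sex) term. Zfp932 at -0.82 and Fcgr2b at 2.24 are the filled points, and the highest point among the HP1 proteins is Cbx3 at 0.59.

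The nearest tested protein-coding genes on either side of the 9 that do not overlap them, a set defined after the values of the 9 were seen, were read to see whether the differences extended along the chromosome. Of these 18 neighbours, 0 were called by edgeR without the replicate term, which called 1 of all 15070 tested genes. Of the 18, 7 had the same sign as the gene beside them. Hnrnpa2b1, which lies 466 bases from Cbx3 on the other strand, had 1607 and 1780 CPM in KO and 2135 and 2114 CPM in WT. It was lower in both KO libraries where Cbx3 was higher in both (-0.33, adjusted p = 0.335, edgeR). The library kit does not mark strand, but no counted exon base of Cbx3 is shared with another counted gene. Among overlapping genes outside that set, Cers2, which shares exon bases with Setdb1, had 74.2 and 83.1 CPM in KO and 105 and 102 CPM in WT (-0.40, adjusted p = 0.267, edgeR), and Dclre1c, which shares some with Suv39h2, had 70.7 and 97.0 CPM in KO and 120 and 117 CPM in WT (-0.50, adjusted p = 0.267, edgeR). The shared bases are 4.73% of the counted Setdb1 length and 9.98% of that of Suv39h2, including other gene models. With the replicate term 1 neighbour passed, beside 3.21% of all tested genes. It was Arrdc1 beside Ehmt1, which had 24.3 and 42.8 CPM in KO and 63.1 and 60.8 CPM in WT (-0.89, adjusted p = 0.0320, edgeR with the term).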

How the data were processed

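The deposited table holds counts of fragments per gene, made by the authors from messenger RNA selected with poly-T beads; per the file headers, featureCounts 1.6.3 counted fragments over exons of Ensembl release 98 without strand and with no option for fragments that map to several places or genes. The submitters' processing notes name FastQC, Trim Galore 0.5.0, HISAT2, featureCounts 1.6.4, DESeq2 and GRCm38. The remaining versions are not stated there. Symbols came from GENCODE M21 (55154 of 56239 IDs, 98.07%).

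In R 4.3.3, genes kept by filterByExpr (15070) were scaled by TMM and tested with the two-sided quasi-likelihood F test of edgeR 4.0.16 for KO minus WT, Benjamini-Hochberg adjustment over all tested genes, threshold 0.05, with no covariate. A fit that adds a term for the replicate number stands beside it, since the number separates the sexes. CPM and RPKM use TMM-scaled library sizes, and pair differences a prior count of 2. DESeq2 1.42.0, limma 3.58.1 (voom), other scalings, no filter and left-out libraries were alternatives. The edgeR step was tested on simulated counts. Copies were found with blastn 2.17.0. Replicates differed beyond sampling noise (chi-square per degree of freedom 52.0 in KO and 11.5 in WT), and p-values measure only the spread between these libraries, which may be technical.

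The 9 genes and the lists were chosen with earlier results of these data known. Named beside the 9 are Chaf1b, Chaf1a, Xist, Ddx3y and, of each list, up to 4 genes past the threshold, then up to 3 past it with the replicate term, or else the 2 most abundant; a gene that the rule names is not reported here, and genes outside that rule are so marked or are neighbours and copies of the 9.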

Additional observations from a re-analysis of the deposited data

Results flagged for a closer look

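Genes whose pairs differed in sign between the sexes were Suv39h2 and Ehmt2. For Suv39h2 the log2 difference, KO minus WT, was -0.59 in the replicate 1 (female) pair and 0.16 in the replicate 2 (male) pair. For Ehmt2 the female pair gave 0.030 and the male pair -0.012. With 1 library per genotype and sex, these differences between pairs were not tested.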

How the results depend on the processing

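The 9 genes were refitted under 11 alternatives each: of these 99 fold changes 90 kept their direction and their side of the threshold, 5 passed the threshold and 4 changed sign. Ehmt2 changed sign with library totals (-0.075) and without KO replicate 1 or WT replicate 2 (leave-one-out range -0.094 to 0.11), and Trim28 without KO replicate 2 (range -0.17 to 0.015). Library totals shifted the median of all genes by -0.08. Among other named genes, Prdm2 (-0.065), Uhrf1 (-0.0082), Morc2a (-0.059) and Atrx (-0.014) changed sign with library totals. Without KO replicate 1, and for Prdm2 also without WT replicate 2, so did Prdm2 (leave-one-out range -0.15 to 0.18), Kdm3b (-0.030 to 0.20), Uhrf1 (-0.0039 to 0.15), Morc2a (-0.025 to 0.075) and Atrx (-0.060 to 0.20). Genes called higher and lower over the whole table numbered 1 and 0 in edgeR's test, 152 and 331 with the replicate block, 627 and 838 with no filter on low counts and 172 and 276 with DESeq2; with 1 library left out they ran from 1 to 2457 higher and from 0 to 2527 lower, the most without KO replicate 2. The labels give the replicate numbers no shared animal or day; the number separated the sexes, and across 15070 genes the differences of replicate 1 minus replicate 2 in KO and in WT had r = 0.47, a description. The block called 0 of the 9 genes, 1 KRAB zinc finger gene lower and 1 silenced gene higher. No filter called 1 of the 9 higher (Cbx3, adjusted p = 0.00354, edgeR), 1 demethylase and 1 cofactor higher, 1 HP1 partner and 1 KRAB zinc finger gene lower and 1 silenced gene higher; DESeq2 called 1 KRAB zinc finger gene lower. Over the left-out libraries, calls among the 9 ran from 0 to 2 in each direction, among demethylases from 0 to 4 higher and 0 to 1 lower, cofactors 0 to 1 in each direction, HUSH and MORC genes 0 to 1 lower, HP1 partners 0 to 4 higher and 0 to 1 lower, KRAB zinc finger genes 0 to 2 lower and silenced genes 0 to 1 higher; a lone library was assumed to vary like the other group. HP1 shares from raw counts without length were 30.9% in KO and 36.4% in WT for Cbx1 and 35.0% in KO and 39.0% in WT for Cbx5; with the length of protein-coding transcripts, added after the data were seen, they were 38.8% and 48.3% for Cbx1, 49.4% and 37.7% for Cbx3 and 11.9% and 14.0% for Cbx5, in KO and WT in turn. Of 18 group means of RPKM, 18 moved beyond the replicate SD as TPM, 14 with the coding length and 6 with library totals; of 18 pair differences, 8 moved with library totals and 0 with a prior count of 0.5. Causes of these changes were not tested. With 2 libraries a group, differences of the size of the KO replicate spread could not be told from it.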
